A study of Mus musculus with 4 samples.

Results

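The unfolded protein response and the integrated stress response were followed in mouse hippocampal nuclei through 10 genes chosen by symbol. The genes were Atf4, Atf3, Ddit3, Trib3, Chac1, Asns, Sesn2, Xbp1, Hspa5 and Herpud1, which covered 11 of the 55403 features in the count tables. Ddit3 had 2 overlapping identifiers on chromosome 10, and the shorter one held 0 UMIs (unique molecular identifiers, each standing for 1 captured transcript) in every library, so Ddit3 stands below for the other. Reads that fall in both Ddit3 models may have been lost in counting, which makes its level uncertain. The members that were called in a comparison lie, in GRCm38, at chr15:80255184-80257541 (Atf4), chr1:191170296-191218039 (Atf3), chr10:127290774-127296288 (Ddit3), chr11:5520659-5525893 (Xbp1), chr2:34771970-34777547 (Hspa5) and chr8:94386438-94395377 (Herpud1), and UMIs were counted over each gene.

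The counts came from 4 libraries of droplet-based single-nucleus RNA sequencing made from pooled frozen hippocampus. WT mice (1 library) were compared with PS19 mice (2 libraries, replicates 1 and 2), whose Prnp promoter drives human MAPT with the P301S mutation (1N4R tau) on a B6;C3 background and which model tau pathology. TG_PS19 mice (1 library) carry the same tau transgene and a SORLA transgene in the Rosa26 locus, driven by a CMV/β-actin element that is not restricted to a cell type. Age, sex and the number of pooled animals are not given in the sources used here, nor is it stated whether the PS19 pair came from separate pools, so p-values measure the spread between that pair only, which may be technical. WT and TG_PS19 had no replicate, which holds for every value below.

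Misfolded protein in the endoplasmic reticulum (ER) is sensed by PERK, IRE1 and ATF6. PERK and other kinases that sense amino acid shortage, heme loss or viral RNA phosphorylate the translation factor eIF2, which slows protein synthesis while favouring translation of ATF4, a transcription factor that turns on amino acid supply, redox and, under lasting stress, death genes; IRE1 splices Xbp1 mRNA, and XBP1 and ATF6 raise chaperones and degradation factors of the ER. Much of this control acts on translation and splicing, which counts of nuclear RNA do not measure.

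Promoters are shown first for members that were called in the same direction, Herpud1 and Ddit3, which were both higher in PS19 oligodendrocytes, and for Hspa5, which was lower there and was added after its values were seen. The sequences are the 250 bases upstream of the annotated start, from RefSeq (GRCm38.p6), which held all 10 members. Capitals mark matches on either strand to 4 motifs, the ER stress elements ERSE (CCAAT and CCACG with 9 bases between) and ERSE-II (ATTGG and CCACG with 1 base between), the ATF4-type element CARE (TGATGNAA) and the XBP1-type element UPRE (TGACGTGG).

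Herpud1, chr8:94386179-94386428, plus strand: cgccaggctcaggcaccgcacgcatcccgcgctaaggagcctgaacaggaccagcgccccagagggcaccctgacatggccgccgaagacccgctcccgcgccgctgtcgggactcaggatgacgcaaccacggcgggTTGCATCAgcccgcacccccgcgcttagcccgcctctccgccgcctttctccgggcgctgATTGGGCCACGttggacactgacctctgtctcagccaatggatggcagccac
Hspa5, chr2:34771840-34772089, plus strand: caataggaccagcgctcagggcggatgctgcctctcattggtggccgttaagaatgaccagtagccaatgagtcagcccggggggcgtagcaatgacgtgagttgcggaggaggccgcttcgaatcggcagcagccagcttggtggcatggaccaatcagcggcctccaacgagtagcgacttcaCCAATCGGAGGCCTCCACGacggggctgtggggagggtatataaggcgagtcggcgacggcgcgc
Ddit3, chr10:127290543-127290792, plus strand: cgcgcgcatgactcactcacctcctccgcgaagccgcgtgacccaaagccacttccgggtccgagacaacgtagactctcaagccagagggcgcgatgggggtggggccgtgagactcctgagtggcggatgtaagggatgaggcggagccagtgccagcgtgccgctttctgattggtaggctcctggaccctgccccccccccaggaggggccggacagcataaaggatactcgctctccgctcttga

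Herpud1 held an ERSE-II match at bases -52 to -42 and a CARE match at -112 to -105, counted back from the start, and Hspa5 held an ERSE match at -65 to -47. ERSE matched 37 of 32851 upstream windows of this length (0.113%), ERSE-II 10 (0.0304%), CARE 1134 (3.45%) and UPRE 185 (0.563%). The Ddit3 window held none of these letters, nor did those of Atf4, Xbp1, Sesn2 and Trib3, while Atf3, Chac1 and Asns each held 1 CARE match. No 2 matches overlapped.

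The libraries held 4643 to 12762 barcodes and 20064025 to 48670533 UMIs, with medians of 2643 to 3708.5 UMIs per nucleus. Pairs of libraries shared 5 to 32 barcodes, at most 0.474% of either. The TG_PS19 library stood apart in sex, with Xist in 55.1% of nuclei against 0.92% to 1.46% in the others, so each result on it was repeated with its nuclei that had a Y-linked UMI and no Xist. These were 2189 of its 8963 kept nuclei. The part of the lower counts in calls lost under that setting was not tested. Within the PS19 pair, replicate 2 held a smaller share of ribosomal protein and of mitochondrial RNA than replicate 1 in 12 of 12 cell classes, both of which serve as measures of cytoplasmic RNA carried into a nuclear library. Nuclei were grouped into 12 marker-defined classes, whose names mean resemblance by these markers, and levels are given as CPM (UMIs per 1000000 UMIs of the class in a library).

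Among the transcription factors, Atf4, the effector of eIF2 phosphorylation, was detected in every class and library. Its mean level over the 4 libraries ran from 41.3 CPM in microglia and 36.8 in mural cells down to 14.5 in dentate granule neurons. The ranges over libraries of neighbouring classes overlapped throughout that order. Xbp1, the IRE1 substrate, was highest on average in endothelial cells (59.4 CPM, range 48.8 to 68.2) and mural cells (54.3) and lowest in CA1 pyramidal neurons (15.8 CPM, range 14.1 to 18.9), again with overlapping neighbours.

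Ddit3, which encodes the pro-apoptotic factor CHOP, averaged 17.6 CPM in fibroblasts, 14.0 in microglia and 2.47 in CA1 pyramidal neurons. Atf3, an immediate stress factor that ATF4 can induce, was sparse, with 104 UMIs over all kept nuclei, and microglia held 43.5% of its UMIs in the 12 classes. Trib3, a pseudokinase that restrains ATF4 and CHOP, had 57 UMIs, of which endothelial nuclei held 11 in WT, 7 and 4 in PS19 and 4 in TG_PS19. These gave 20.4, 31.2, 12.4 and 11.5 CPM, and no library of the next class, Cajal-Retzius neurons, reached the lowest of them.

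The amino acid and redox genes downstream of ATF4 were also low. Asns, which makes asparagine, was highest in 4 of the 5 neuronal classes, at a mean of 13.7 CPM in other excitatory neurons, 10.7 in CA1 pyramidal, 10.4 in inhibitory and 7.23 in dentate granule neurons. Cajal-Retzius neurons had 3 UMIs, all in 1 library, and a mean of 2.04 CPM. The range of dentate granule neurons (5.98 to 8.84 CPM) did not overlap that of the next class, oligodendrocyte precursors. It did overlap those of endothelial cells (0 to 9.30 CPM, 5 UMIs in all) and Cajal-Retzius neurons (0 to 8.14 CPM). Inhibitory neurons (3.81 to 18.3 CPM) overlapped the precursors (1.31 to 5.87 CPM). Microglia had 0 UMIs in all 4 libraries. Sesn2, an antioxidant regulator that restrains mTORC1, ranged over the libraries from 4.82 to 11.3 CPM in microglia, its highest class on average, and from 1.34 to 2.51 in oligodendrocytes, its lowest. Chac1, which degrades glutathione, had 14 UMIs in all and was tested in no class.

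Hspa5, the ER chaperone BiP that holds the sensors inactive, was highest on average in microglia (152.5 CPM) and mural cells (119.9) and lowest in CA1 pyramidal neurons (43.1). Herpud1, a membrane protein of ER-associated degradation, averaged 89.8 CPM in fibroblasts and 12.0 in dentate granule neurons. Its excitatory classes lay below all others, since inhibitory neurons (17.7 to 31.4 CPM) did not overlap the next class in the order, other excitatory neurons (12.2 to 17.4 CPM).

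**Figure D1:**
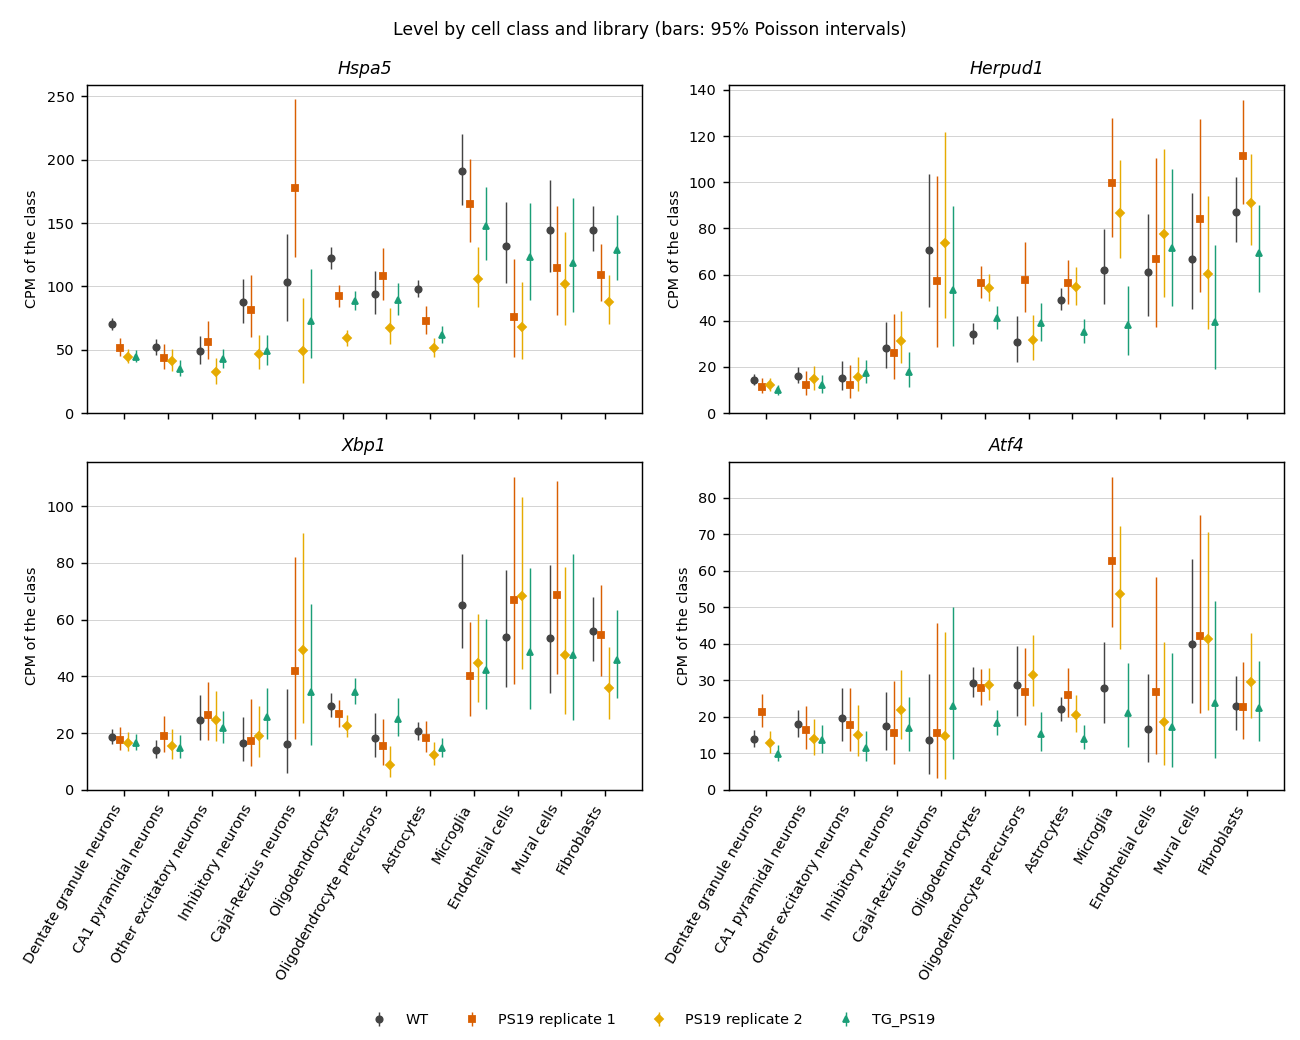
Level in CPM (vertical axis, linear) of Hspa5, Herpud1, Xbp1 and Atf4 in 12 cell classes (horizontal axis), with 1 point per library and bars for exact 95% Poisson intervals, which cover counting error only. Hspa5 points of WT lie above both PS19 points in 9 classes, and the excitatory neurons have the lowest Herpud1 levels.

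**Figure D2:**
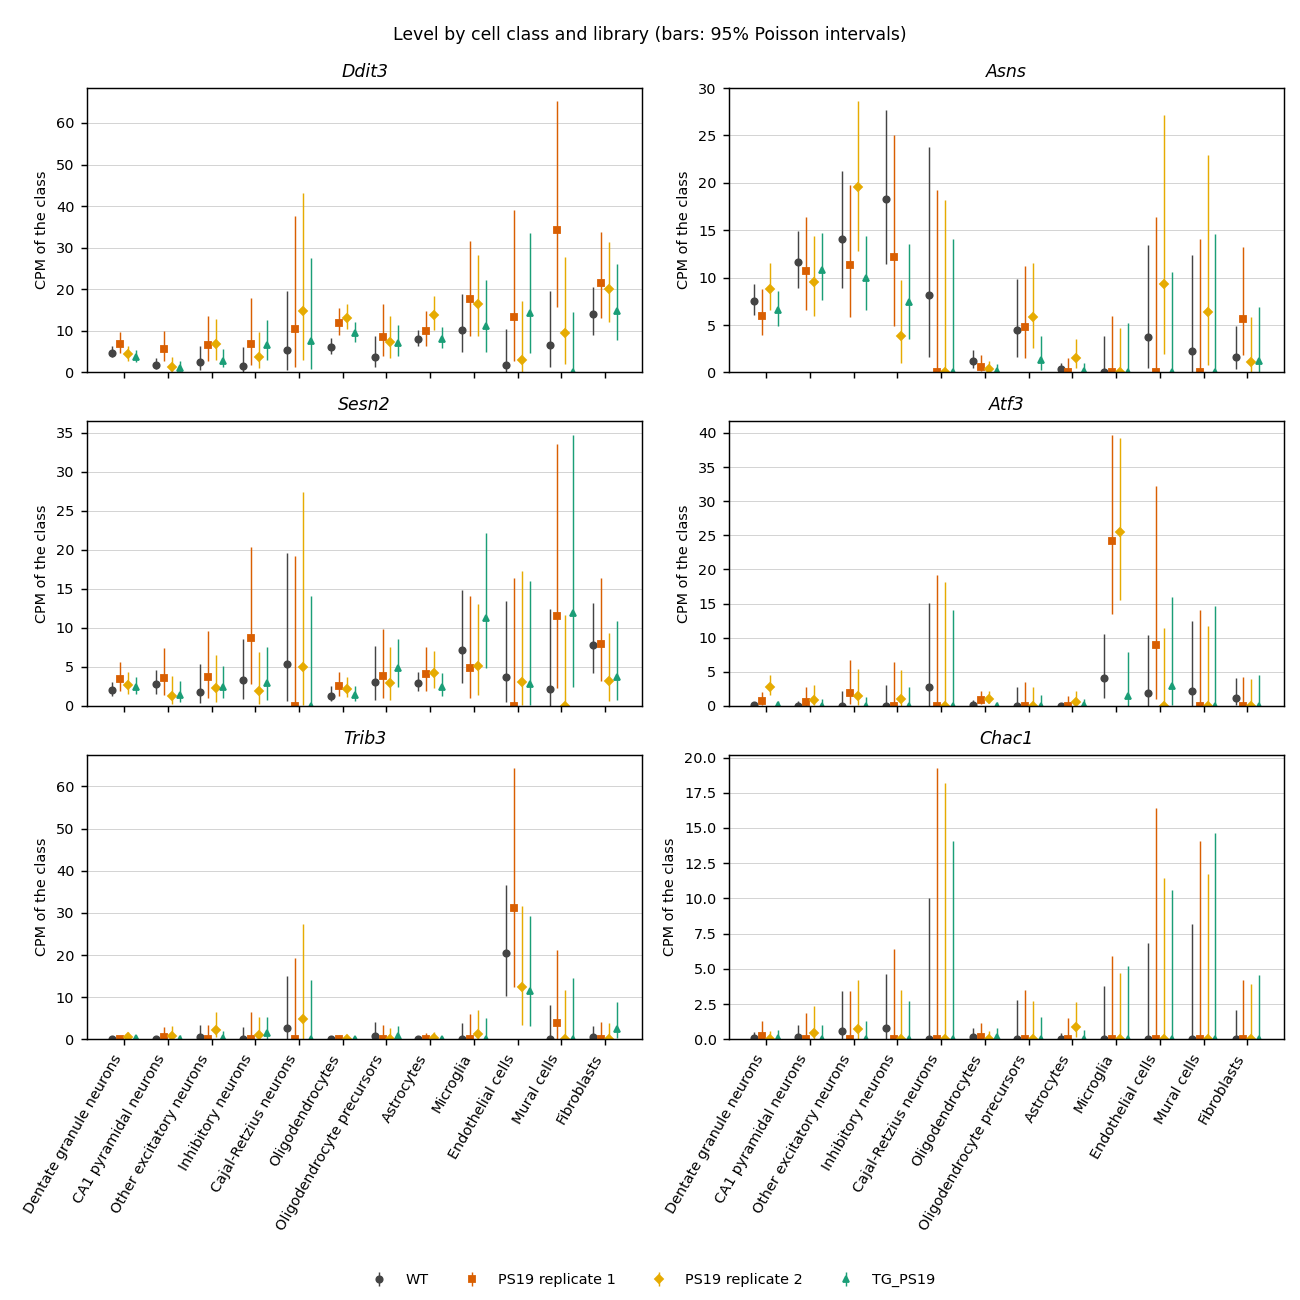
Level in CPM (vertical axis, linear and scaled per gene) of the 6 sparse members in the same classes and libraries, with exact 95% Poisson intervals. Trib3 stands out in endothelial cells and Atf3 in the microglia of both PS19 libraries, and Asns is highest on average in 4 of the 5 neuronal classes.

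In PS19 against WT, the ER chaperone and the stress factors did not move together. Hspa5 fell in dentate granule neurons, oligodendrocytes and astrocytes, Herpud1 and Ddit3 rose in oligodendrocytes, and Atf3 rose in dentate granule neurons on very few nuclei. Of 120 pairs of member and class, 65 passed the low-count filter, and 6 of these passed an adjusted p of 0.05 in edgeR's quasi-likelihood test, 3 higher and 3 lower, while 13 had an unadjusted p under 0.05. Over all genes and classes 2.47% of tests passed, and the median log2 fold change was 0.06 for the members and 0.01 for all genes. DESeq2 called 0 of these pairs, with 4 at an unadjusted p under 0.05, and scaling to class totals gave 5 higher and 3 lower calls.

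**Figure D3:**
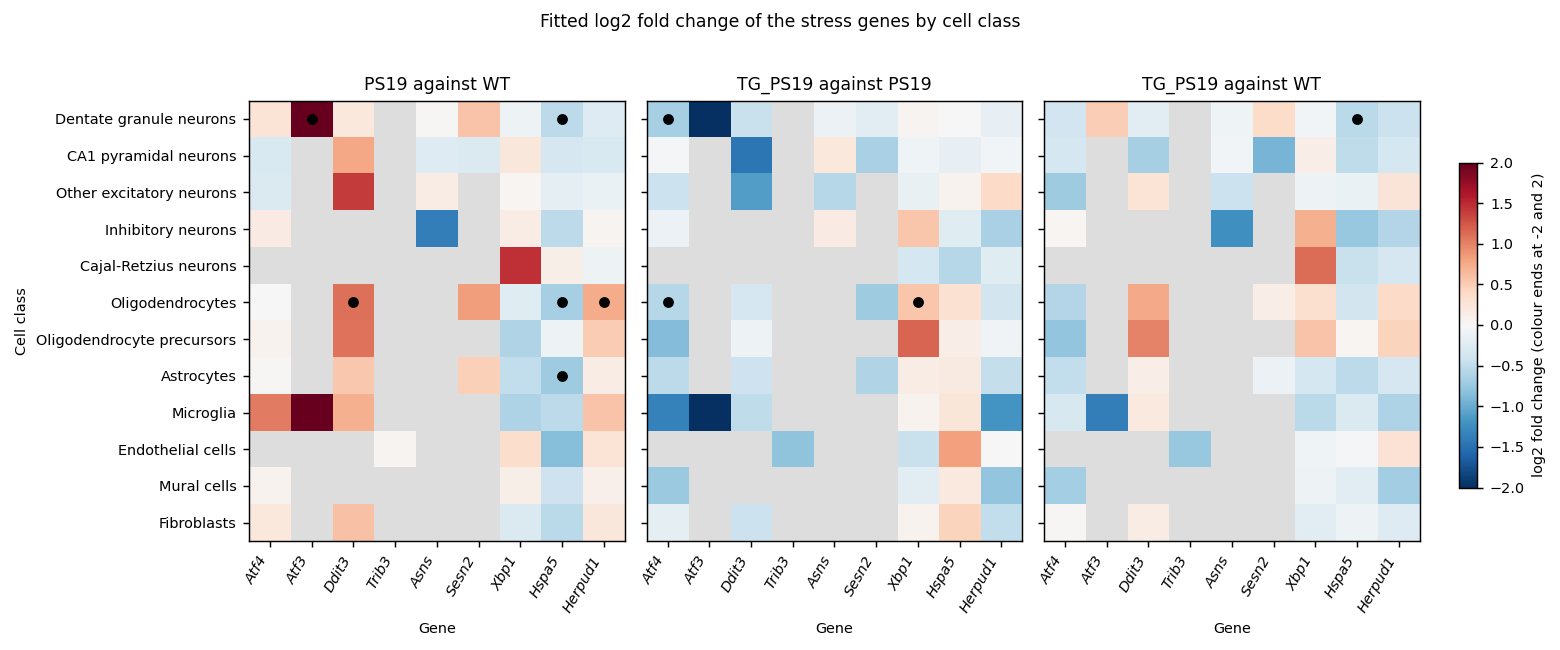
Fitted log2 fold change (colour, ending at -2 and 2) of the 9 tested members (columns) in 12 cell classes (rows) for the 3 comparisons. Black dots mark an adjusted p under 0.05 and grey cells were not tested; the dots number 6, 3 and 1 from left to right.

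Hspa5 was lower in both PS19 libraries than in WT in 9 of 12 classes and higher in both in 0. For this and the later counts of classes, the share of all genes with such an order was not counted. In oligodendrocytes it had 122.2 CPM in WT, 92.2 and 59.1 in PS19 and 88.6 in TG_PS19, from 353 to 823 UMIs. The log2 fold change of PS19 against WT there was -0.66 (SE 0.13, adjusted p 1.79e-05), in a class where 6.96% of genes were called. Both PS19 values lay below WT, and the gap between them was about as wide as that between WT and replicate 1.

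Astrocytes showed the same order, with 98.0 CPM in WT, 73.1 and 51.4 in PS19 and 61.6 in TG_PS19. The fitted change was -0.71 (SE 0.15, adjusted p 1.14e-04), where 6.03% of genes were called. Dentate granule neurons held 70.2 CPM in WT, 51.8 and 44.7 in PS19 and 44.7 in TG_PS19, a change of -0.53 (SE 0.12, adjusted p 0.00164) against 3.11% of genes called. Hspa5 in the remaining 9 classes gave log2 fold changes of -0.85 to 0.12 without a call.

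The size of the Hspa5 difference depended on the PS19 library. Replicate 2 was below replicate 1 in 12 of 12 classes, as were its ribosomal protein and mitochondrial shares. In oligodendrocytes the ribosomal protein share was 0.273% in WT, 0.268% and 0.220% in PS19 and 0.248% in TG_PS19. Without replicate 2 the log2 fold change against WT was -0.37 in oligodendrocytes, -0.46 in astrocytes and -0.44 in dentate granule neurons, and without replicate 1 it was -0.99, -0.95 and -0.62, with no test possible. In dentate granule neurons it was 0.208%, 0.223% and 0.185%, and 0.158%. The part of these shares in the result was not tested.

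**Figure D4:**
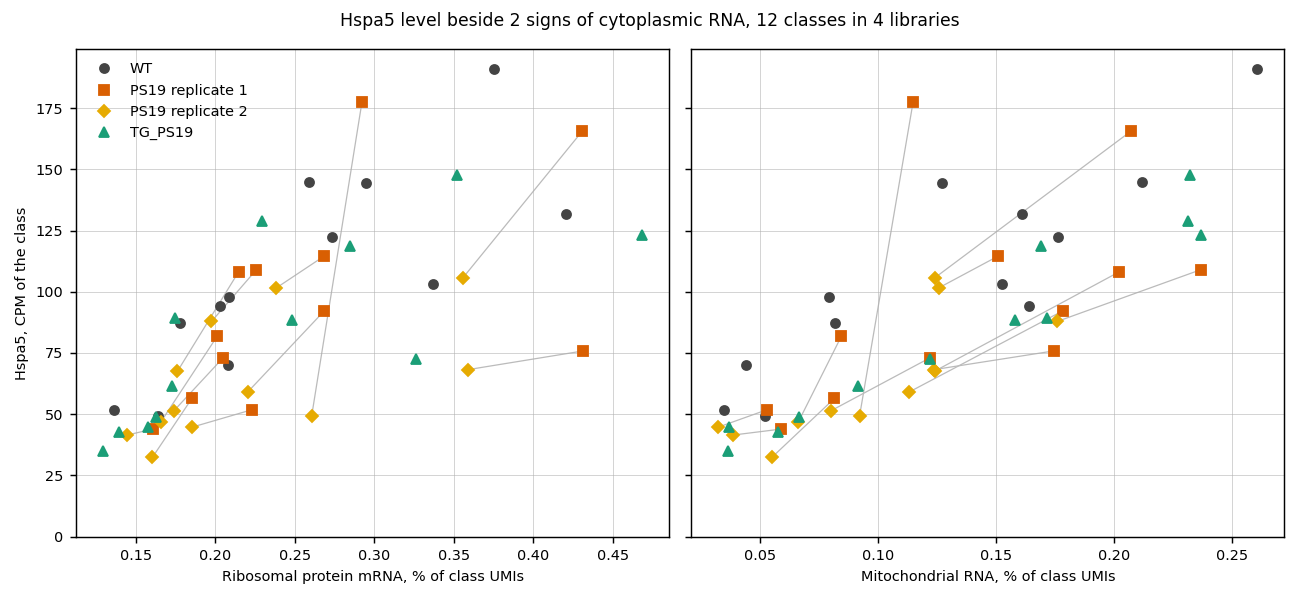
Hspa5 level in CPM (vertical axis) against the share of class UMIs from ribosomal protein mRNA (left) and mitochondrial genes (right), 1 point per class and library, with a line joining the PS19 pair of each class. Every line runs down from replicate 1 to replicate 2 as both shares fall.

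Markers of other classes in these sums also differed. In oligodendrocytes, the 10 astrocyte markers, all detected in each library, summed to 713 CPM in WT, 305 and 260 in PS19 and 508 in TG_PS19, and the 10 microglial markers, all detected, to 337, 257 and 216, and 271 CPM. In astrocytes the 10 microglial markers, all detected, summed to 301 CPM in WT and to 250 and 217 in PS19, and the 10 oligodendrocyte markers to 609, then 461 and 325. Their part in the result was not tested. Within oligodendrocytes Hspa5 was lower in both PS19 libraries in all 3 clusters, where WT ranged from 116.5 to 133.6 CPM and PS19 from 54.8 to 96.4. In astrocytes Hspa5 was lower in both in the largest cluster (101.7 CPM in WT, 69.8 and 59.4 in PS19) and in the one led by Adgrv1 (103.6, then 63.7 and 96.1), while in the cluster led by Myoc and Gfap replicate 1 lay at 79.1, above WT at 73.5, and replicate 2 at 34.8. That cluster held 14.1% of WT, 36.5% and 37.5% of PS19 and 13.5% of TG_PS19 astrocytes.

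Herpud1 moved in the other direction in oligodendrocytes. It had 34.2 CPM in WT, 56.6 and 54.2 in PS19 and 41.3 in TG_PS19, from 230 to 324 UMIs. Both PS19 libraries lay close to each other and above WT and TG_PS19. The log2 fold change of PS19 against WT was 0.74 (SE 0.15, adjusted p 8.67e-05), and it was 0.72 without replicate 1 and 0.77 without replicate 2. A UMI was found in 6.87% of WT oligodendrocytes, 13.3% and 15.1% of PS19 and 8.14% of TG_PS19 ones, and after thinning each nucleus to 1000 UMIs in 3.94%, 5.57% and 4.84%, and 3.63%.

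The rise was uneven within the class. In the cluster led by Anln and Enpp6, Herpud1 had 36.2 CPM in WT, 65.5 and 63.9 in PS19 and 44.9 in TG_PS19. The cluster whose leading genes included Il33 had 30.1, 63.2 and 47.6, and 36.1 CPM in the same order. The cluster led by 7630403G23Rik and Slc13a1 had 36.8 in WT, 36.2 and 45.2 in PS19 and 41.3 in TG_PS19, where PS19 did not separate from WT. The difference between clusters was not tested.

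Ddit3 rose in the same class. Oligodendrocytes held 41 UMIs in WT, 57 and 79 in PS19 and 63 in TG_PS19, which gave 6.09, 11.9 and 13.2, and 9.57 CPM. The log2 fold change of PS19 against WT was 1.10 (SE 0.29, adjusted p 0.00410), and it was 1.17 and 1.01 without replicate 1 and 2. Both PS19 libraries exceeded WT in 10 of 12 classes, an order whose share over all genes was not counted. Fitted changes were 0.21 to 1.40 in the 8 classes tested, of which 1 was called. Classes of a library come from the same pool and are not replicates. Median depth of oligodendrocytes was 1960 UMIs in WT, 2428 and 3026 in PS19 and 2013 in TG_PS19, and its part in these results was not tested.

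Atf3 in dentate granule neurons was called on 1 UMI in WT, 3 and 17 in PS19 and 1 in TG_PS19. The 17 UMIs of replicate 2 lay in 3 of 552 nuclei, and 1 nucleus held 11 of them. The ratio of PS19 over WT was 21.8 with a 95% counting interval of 3.48 to 902 (fitted log2 fold change 4.19, SE 1.30, adjusted p 0.0437). Without replicate 2 the gene was not tested in this class, because too few UMIs remained, and it was likewise not tested when doublets were kept or clusters were finer. The call therefore rests on a few nuclei of 1 library.

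In microglia 3 members were higher in PS19 at an unadjusted p under 0.05 without passing the adjusted threshold. They are Atf3, Atf4 and Herpud1, singled out after their values were seen. The class was 1 cluster, but at the finer Leiden resolution of 2.0 it split into a cluster led by Siglech and Inpp5d, which held 91.2% of WT and 93.4% of TG_PS19 microglia, and a cluster led by Ly86 and Fyb, which held 82.1% and 82.7% of PS19 microglia. The values for the class therefore set mostly one of these clusters against the other. Atf3 had 4 UMIs in WT, 15 and 20 in PS19 and 1 in TG_PS19, or 4.13, 24.1 and 25.5, and 1.41 CPM. Both PS19 libraries stood well above the other libraries, with a ratio of PS19 over WT of 6.02 (95% counting interval 2.15 to 23.3). The fitted log2 fold change was 2.53 (SE 0.69, adjusted p 0.114), where 2.74% of microglial genes were called. All 4 WT UMIs of Atf3 lay in the cluster led by Ly86 and Fyb, at 43.6 CPM (95% counting interval 11.9 to 112), as did 14 of 15 and 20 of 20 PS19 UMIs, at 26.5 and 30.4 CPM. Within that cluster the WT count of Atf3 was too low to place WT above or below PS19, and TG_PS19 had 0 UMIs in its 27 nuclei there.

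The PS19 counts of Atf3 were spread over nuclei, with a UMI in 10 of 257 and 18 of 283 microglia, or 3.89% and 6.36%, against 0.518% in WT and 0.246% in TG_PS19. After thinning to 1000 UMIs, which left out 30 WT, 4 and 1 PS19 and 16 TG_PS19 nuclei, the shares were 0.364%, 1.98% and 2.48%, and 0.256%. Oligodendrocyte precursors, at a higher median depth of 4363 and 5116 UMIs in PS19 against 2198 and 2572 in microglia, had an Atf3 UMI in 0 of 229 and 0 of 245 nuclei, which allows shares of up to 1.31% and 1.22% of nuclei with a UMI and sets no limit on nuclei that express the gene. In oligodendrocytes, 9 of the 10 PS19 UMIs fell in the cluster led by 7630403G23Rik and Slc13a1, which had 0 in WT and TG_PS19.

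Atf4 in microglia followed the same order, at 27.9 CPM in WT, 62.7 and 53.5 in PS19 and 21.1 in TG_PS19 (15 to 42 UMIs). PS19 exceeded WT by 1.04 on the log2 scale (SE 0.31, adjusted p 0.149). Herpud1 had 62.0 CPM in WT, 99.6 and 86.6 in PS19 and 38.0 in TG_PS19, a change of 0.57 (SE 0.24, adjusted p 0.307). Ddit3 went the same way, with 10.3 CPM in WT, a mean of 17.1 in PS19 and 11.3 in TG_PS19. Its change in PS19 against WT was 0.71 (SE 0.59) without a call. Xbp1 ran the other way, from 65.1 CPM in WT to 40.2 and 44.6 in PS19 (-0.62, adjusted p 0.327). So did Hspa5, from 191.1 to 165.5 and 105.7 (-0.53, adjusted p 0.352). In the cluster led by Ly86 and Fyb, Atf4 had 43.6 CPM in WT against 64.3 and 56.2 in PS19, and Herpud1 98.1 against 98.3 and 85.1, with 4 and 9 WT UMIs. In the cluster led by Siglech, Atf4 had 26.2 CPM in WT against 53.6 and 39.2 in PS19, and Herpud1 58.2 against 107.3 and 94.1, with 5 to 12 PS19 UMIs per library and gene. Summed immediate early genes were at 208 CPM in WT, 257 and 199 in PS19 and 118 in TG_PS19 microglia, so that the PS19 pair lay on either side of WT.

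The microglial p-values depended on the setting. In PS19 against WT, Atf3 was called with a robust prior (adjusted p 0.0214), with class totals (0.0249), without the low-count filter (0.0100) and with doublets kept (0.0234), and Atf4 with class totals (0.0421) and doublets kept (0.0330). Those settings also called more of all microglial genes, 7.91% with a robust prior, 8.62% with class totals, 3.22% without the filter and 5.54% with doublets kept. Relative log expression scaling went the other way, with 1.55% of genes called and adjusted p of 0.150 for Atf3 and 0.183 for Atf4. The fold changes behind these calls kept their direction. The 10 astrocyte markers, all detected, summed to 902 CPM in WT microglia, 580 and 544 in PS19 and 819 in TG_PS19, and their part in the result was not tested.

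Of the other members, Xbp1 gave log2 fold changes of -0.62 to 1.46 over 12 classes, Asns -1.38 to 0.14 over 4, Sesn2 -0.29 to 0.84 over 4 and Trib3 0.06 in endothelial cells, all without a call in PS19 against WT. Xbp1 was higher in both PS19 libraries than in WT in 5 classes and lower in both in 6.

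The comparison of TG_PS19 with PS19 sets 1 library with the added SORLA transgene against the PS19 pair with the same tau transgene. The TG_PS19 library also had Xist in 55.1% of nuclei, against 1.05% and 1.46% in PS19. The transgene can therefore not be told apart from sex or from the pool. Atf4 was lower in TG_PS19 in oligodendrocytes and dentate granule neurons, and Xbp1 was higher in oligodendrocytes. These were the 3 calls among 65 pairs, 1 higher and 2 lower, against 4.39% called over all genes, with 14 pairs at an unadjusted p under 0.05, of which 10 were lower. The median log2 fold change was -0.22 for members and -0.01 for all genes. DESeq2 called 0 pairs, with 1 at an unadjusted p under 0.05. This comparison shares the PS19 libraries with the one above.

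Atf4 in oligodendrocytes had 29.3 CPM in WT, 27.9 and 28.6 in PS19 and 18.2 in TG_PS19 (120 to 197 UMIs). The TG_PS19 library lay apart below the other libraries. The log2 fold change against PS19 was -0.58 (SE 0.19, adjusted p 0.0294), where 9.3% of oligodendrocyte genes were called, and it was -0.61 and -0.54 without PS19 replicate 1 and 2. Without the low-count filter the adjusted p was 0.0613, and with Y-linked nuclei only the change was -0.90 (adjusted p 0.0240).

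In dentate granule neurons Atf4 had 13.9 CPM in WT, 21.4 and 12.8 in PS19 and 9.84 in TG_PS19. The change was -0.66 (SE 0.23, adjusted p 0.0434) against 9.42% of genes called, but it was -0.30 without PS19 replicate 1 and -1.01 without replicate 2. The call rests on replicate 1, the only PS19 library above WT, and it was lost without the low-count filter (adjusted p 0.108), with a robust prior (0.0573), with doublets kept (0.131) and with finer clusters (0.176). In CPM, which uses class totals, TG_PS19 had less Atf4 than both PS19 libraries in 10 of 12 classes. On class totals the median log2 fold change of all genes was also below 0, from -0.05 in endothelial cells to -0.19 in astrocytes. How many genes share such an order was not counted. With TMM scaling the fitted Atf4 change was negative in each of the 10 classes tested.

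Xbp1 in oligodendrocytes had 29.7 CPM in WT, 26.6 and 22.4 in PS19 and 34.5 in TG_PS19 (127 to 227 UMIs). TG_PS19 was the highest library and PS19 replicate 2 the lowest. Relative to PS19 the log2 fold change was 0.56 (SE 0.17, adjusted p 0.0163), 0.66 without replicate 1 and 0.44 without replicate 2. The adjusted p was 0.0675 with scaling to class totals and 0.147 with Y-linked nuclei, at changes of 0.50 and 0.55.

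In microglia the 3 members singled out above were low in TG_PS19, whose nuclei lay mostly in the other finer cluster. The log2 fold changes were -3.91 for Atf3 (SE 0.94, adjusted p 0.0731), -1.36 for Atf4 (SE 0.36, adjusted p 0.0967) and -1.19 for Herpud1 (SE 0.28, adjusted p 0.0711), with 2.94% of microglial genes called. Since TG_PS19 held 1 Atf3 UMI, the ratio of PS19 over TG_PS19 was 17.7 with a counting interval of 2.97 to 718. All 3 were called with a robust prior, with class totals, without the low-count filter and with doublets kept, settings that called 3.29% to 9.24% of microglial genes. With relative log expression scaling 1.32% were called and the adjusted p was 0.108 for Atf3, 0.133 for Atf4 and 0.107 for Herpud1. None of them was called with Y-linked nuclei, where all remained negative (adjusted p 0.562, 0.522 and 0.102). That setting kept 79 of the 407 TG_PS19 microglia.

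Scaling to class totals gave 7 calls, all lower, including Atf3 in dentate granule neurons and Herpud1 in astrocytes beside the microglial genes, and it shifted the median of all genes by up to -0.19 on the log2 scale, in astrocytes. On class totals, Herpud1 in astrocytes had 49.1 CPM in WT, 56.2 and 54.6 in PS19 and 35.2 in TG_PS19. In the fit with TMM scaling its change against PS19 was -0.47 (SE 0.18, adjusted p 0.0757). With Y-linked nuclei 4 pairs of member and class were called, all lower, Atf4 in both classes named above and Herpud1 in oligodendrocytes and astrocytes. Ddit3 CPM, on class totals, was lower in TG_PS19 than in both PS19 libraries in 10 of 12 classes, an order whose share over all genes was not counted. Its fitted changes with TMM scaling were -1.45 to -0.10 in the 8 classes tested, with no call. Hspa5 gave changes of -0.56 to 0.81 without a call.

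Against WT, TG_PS19 differed in 1 of 65 pairs, Hspa5 in dentate granule neurons, while 1.95% of tests passed over all genes and 9 pairs had an unadjusted p under 0.05. Hspa5 fell by 0.53 on the log2 scale (SE 0.14, adjusted p 0.00526), and the adjusted p was 0.0883 with Y-linked nuclei at a change of -0.54. Its CPM, which uses class totals, was lower in TG_PS19 than in WT in 12 of 12 classes. On class totals the median log2 fold change of all genes was also below 0, from -0.05 in CA1 pyramidal neurons to -0.15 in astrocytes. With TMM scaling the fitted Hspa5 change was below 0 in 11 of 12 classes. DESeq2 called 0 pairs, with 0 at an unadjusted p under 0.05. Both arms of this comparison are lone libraries whose spread was taken from the PS19 pair.

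The rest of the pathway was read from 65 further genes in 3 lists, tested in 591 pairs of gene and class. In PS19 against WT 16 pairs were called, 5 higher and 11 lower, a share of 2.71% that was near the 2.47% over all genes, and DESeq2 called 0, with 6 at an unadjusted p under 0.05. Sensors and eIF2 control genes gave 0 higher and 1 lower call among 149 pairs, Eif2b5, a subunit of the eIF2 exchange factor, in astrocytes (-0.75). ATF4 targets gave 4 higher and 4 lower among 203. ATF6 and XBP1 targets gave 1 higher and 6 lower among 239, with a median log2 fold change of -0.15 against 0.01 over all genes.

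The called ATF6 and XBP1 targets were in oligodendrocytes, astrocytes and dentate granule neurons, which held 74.5% of the calls over all genes. Pdia6, a disulfide isomerase of the ER, was lower in oligodendrocytes, astrocytes and dentate granule neurons (-0.58, -0.70 and -0.54), and Calr, a lectin chaperone, in astrocytes and dentate granule neurons (-0.56 and -0.53). In oligodendrocytes Pdia6 had 75.6 CPM in WT, 56.4 and 42.2 in PS19 and 69.9 in TG_PS19, the same order of the PS19 pair as for Hspa5. Sec24d, a coat protein of vesicles leaving the ER, was higher in astrocytes (0.82).

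ATF4 targets split by gene and class. In PS19 astrocytes Cebpb and Cebpg, transcription factors that pair with ATF4, were higher (1.35 and 0.63), as was the stress hormone Gdf15, which had 1 UMI in WT, 8 and 14 in PS19 and 6 in TG_PS19 (4.71, SE 1.20, adjusted p 0.00286). Aars, an aminoacyl-tRNA synthetase, was higher in dentate granule neurons (0.67). Slc7a11, the cystine transporter, was lower in PS19 oligodendrocytes (-1.23), with 21.4 CPM in WT against 8.59 and 9.04. Vegfa, the vascular growth factor, was lower in oligodendrocytes (-0.93) and astrocytes (-0.64), and Vldlr, a lipoprotein receptor, in astrocytes (-0.90). The cluster led by Myoc and Gfap held 14.1% of WT, 36.5% and 37.5% of PS19 and 13.5% of TG_PS19 astrocytes. The part of this makeup in the astrocyte changes of any gene or comparison was not tested.

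In TG_PS19 against PS19, 22 pairs were called, 8 higher and 14 lower, or 3.72% against 4.39% over all genes, and ATF4 targets made up 5 and 13 of these. Slc3a2, the heavy chain shared by amino acid transporters, was lower in all 12 classes and called in 5, from -0.48 in dentate granule neurons to -0.91 in oligodendrocyte precursors. In oligodendrocytes it had 61.8 CPM in WT, 70.2 and 57.2 in PS19 and 39.8 in TG_PS19. With Y-linked nuclei it was called in oligodendrocytes (-0.71, adjusted p 0.00866) and other excitatory neurons (-0.90, adjusted p 0.0421), and in astrocytes the change was -0.34 (adjusted p 0.308).

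Vegfa moved against Slc3a2 and was higher in TG_PS19 in 4 classes, by 1.34 in dentate granule neurons, 1.03 in astrocytes, 0.85 in oligodendrocyte precursors and 0.65 in oligodendrocytes. Astrocytes had 262.5 CPM in WT, 175.5 and 169.1 in PS19 and 310.1 in TG_PS19. With Y-linked nuclei the change was 1.20 in astrocytes (adjusted p 1.16e-14) but 0.52 in dentate granule neurons (adjusted p 0.735) and 0.16 in oligodendrocytes (adjusted p 0.860). Cebpb fell in astrocytes (-2.02), Slc7a11 in oligodendrocyte precursors (-1.42, but 0.50 with doublets kept) and Slc7a1, an arginine transporter, in astrocytes (-1.36), while Slc7a11 rose in oligodendrocytes (0.72). The ER chaperones Hsp90b1 (0.49 in dentate granule neurons and in oligodendrocytes) and Pdia6 (0.57 in oligodendrocytes) rose as well. The 24 ATF6 and XBP1 targets, of which 23 were tested, gave 3 higher calls and 1 lower one, Dnajb9 in astrocytes (-0.64), and DESeq2 called 1 pair of the 3 lists, with 11 at an unadjusted p under 0.05. Among sensors and eIF2 control genes edgeR called 0, with 14 at an unadjusted p under 0.05, and DESeq2 called 0.

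**Figure D5:**
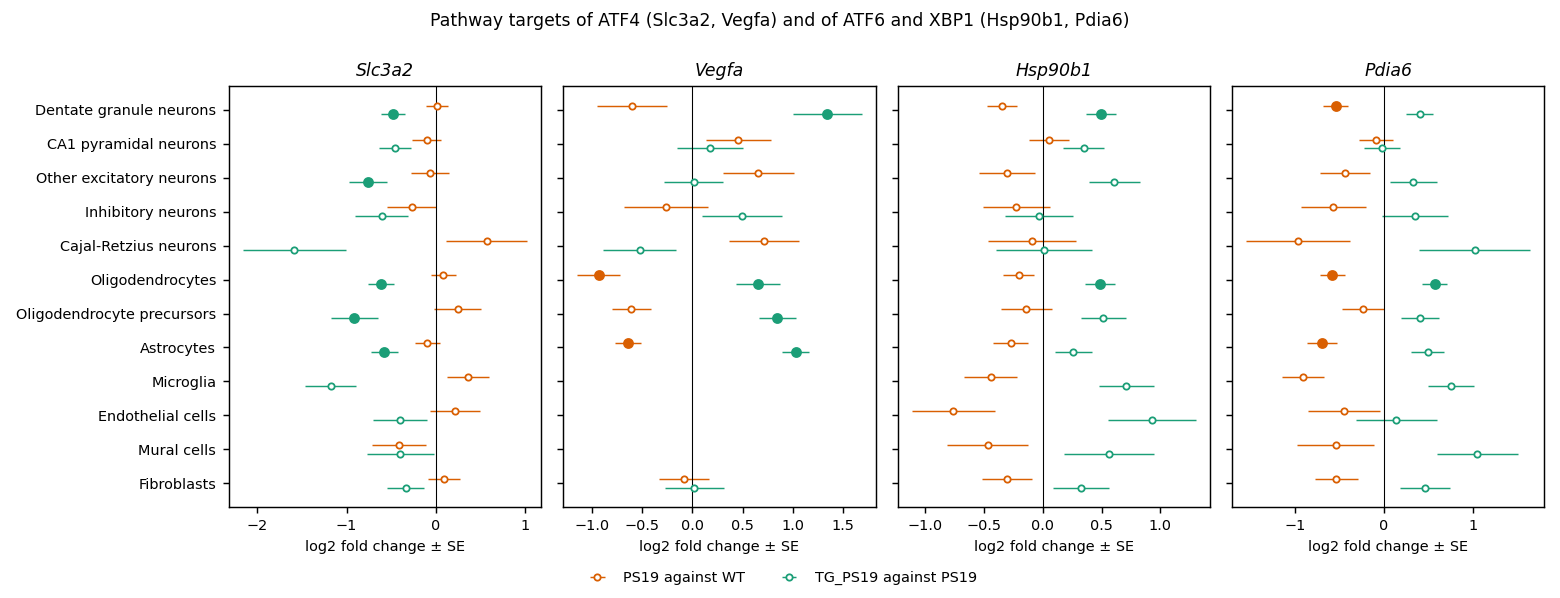
Fitted log2 fold change with its SE (horizontal axis) in 12 cell classes (vertical axis) for 2 ATF4 targets, Slc3a2 and Vegfa, and 2 ATF6 and XBP1 targets, Hsp90b1 and Pdia6. Filled points passed an adjusted p of 0.05; Slc3a2 lies below 0 in every class in TG_PS19 against PS19, and Pdia6 below 0 in every class in PS19 against WT.

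Against WT, TG_PS19 had 6 calls in the 3 lists, all lower, or 1.02% against 1.95% over all genes. None of the 6 was called by DESeq2 or with Y-linked nuclei, and 1 was called without the low-count filter, Slc3a2 in astrocytes. Slc3a2 was lower in other excitatory neurons (-0.83), astrocytes (-0.67), oligodendrocytes (-0.53) and dentate granule neurons (-0.46), where Derl1, a channel component of ER-associated degradation (-0.56), and Sars, another aminoacyl-tRNA synthetase (-0.53), were lower too.

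Companion lists were measured beside these, since Atf3 and Ddit3 also answer to cell activation and tissue handling. Of the 12 immediate early genes, Fos and Junb were higher in PS19 against WT in astrocytes (2.23 and 2.64) and oligodendrocytes (3.35 and 1.32), and Jun was lower in oligodendrocytes (-0.46), which made 4 higher and 1 lower call. In TG_PS19 against PS19 the list gave 0 higher and 12 lower calls. They were led by Fos in oligodendrocytes (-4.14), Ier2 in astrocytes (-4.06) and Junb in astrocytes (-3.71). Levels of the first 2 were low. Fos in oligodendrocytes had 0.297 CPM in WT, a mean of 2.99 (SD of the PS19 pair 2.16) in PS19 and 0.152 in TG_PS19. Ier2 in astrocytes had a mean of 4.20 CPM (SD 3.40) in PS19 and 0.187 in TG_PS19. TG_PS19 against WT gave 0 higher and 7 lower calls. They were led by Arc and Junb in other excitatory neurons (-1.83 and -1.29) and Junb in astrocytes (-1.08). Each comparison tested 73 pairs of this list, while 2.47%, 4.39% and 1.95% of tests passed over all genes. DESeq2 called 2, 3 and 0 pairs in the same order. The summed list was lower in TG_PS19 than in both PS19 libraries in 10 of 12 classes, the same number as for Atf4 and Ddit3. These counts use class totals, on which the median change of all genes in TG_PS19 against PS19 was also below 0. The ribosomal protein share was lower in TG_PS19 than in both PS19 libraries in 7 of 12 classes. The part of either measure in the member values was not tested. Of 7 cytosolic heat shock genes, Hspa1b was higher in PS19 oligodendrocytes (3.64) and Hsph1 in TG_PS19 oligodendrocytes against WT (0.78), and edgeR called 0 in TG_PS19 against PS19, with 1 at an unadjusted p under 0.05, as DESeq2 called 0. Hspa1b was also low, at 0.15 CPM in WT oligodendrocytes and a mean of 1.97 (SD 1.00) in PS19 ones.

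Over the 48 sums of class and library, the genes with the profile most like Hspa5 were its ER partners Hsp90b1 (Pearson r 0.876) and Pdia3 (0.859), followed by Itm2b (0.847). Herpud1 was most like Irf3 (0.916), Nfe2l2 (0.905) and Zfp395 (0.900), Xbp1 most like Tln1, Cdc42 and Rcsd1 (0.838 to 0.856), and Atf4 most like Stx16, Ftl1 and P2rx4 (0.782 to 0.796). Asns was most like the neuronal genes Gm27032, Cdh12 and Slitrk4 (0.825 to 0.842). Among the 6 members with at least 10 CPM in at least 6 sums, Hspa5 and Herpud1 went together most closely (0.706) and Asns ran against the other 5 (-0.670 to -0.460). These correlations describe sums that share libraries, depth and cell classes, and they were not tested.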

How the data were processed

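The authors deposited raw UMI counts per gene and nucleus, counted per the file headers by Cell Ranger 7.1.0 on GRCm38 per the submitters' processing notes; the annotation release and the counting of introns are not given in the sources used here. Members, lists and naming rules were chosen with earlier results of these data known. Gene positions were taken from GENCODE M21. About 10000 nuclei were loaded per run at about 50000 reads per nucleus, per the labels' protocols.

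Nuclei with at least 500 UMIs, 300 genes and at most 5% mitochondrial UMIs were kept, and the top Scrublet scores (0.8% per 1000 barcodes, 2 simulated doublets per nucleus; scanpy 1.11.5) were removed, which left 11458 WT, 4467 and 4728 PS19 and 8963 TG_PS19 nuclei. Clusters came from 2000 variable genes without the stress genes, 30 principal components, 15 neighbours and the Leiden method at resolution 1.0 (leidenalg 0.10.2, 27 clusters). Names came from 18 marker lists, a name needing at least 4 raised markers, or 3 and 50% of the list, raised meaning a log2 fold of at least 1 (pseudocount 10 CPM) and detection in 10% of nuclei. A name was withheld where the 10 leading genes held more markers of another list than of its own, or none of its own at low depth. A cluster led by Sfta3-ps was left unnamed by judgement after it was seen, and nuclei of unnamed clusters were not tested. Those clusters held 402 WT, 42 and 56 PS19 and 670 TG_PS19 nuclei. The cluster led by Ttr held 645 of the TG_PS19 ones, and that led by Sntb1 held 279 nuclei, all WT. The 12 classes tested held at least 50 nuclei in each library.

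Counts summed per class and library were tested in R 4.3.3 with edgeR 4.0.16 (filterByExpr, TMM, quasi-likelihood F-test, two-sided, Benjamini-Hochberg within a class over all genes), all 4 libraries together, where the PS19 pair gave the 1 residual degree of freedom; WT and TG_PS19 were assumed to vary like it. The test was checked on simulated data. Those data gave every library the same spread, so they could not check the assumption about WT and TG_PS19. Alternatives were relative log expression scaling, class totals, DESeq2 1.42.0, no low-count filter, a robust prior, doublets kept, resolution 2.0, TG_PS19 nuclei with a Y-linked UMI and no Xist, and each PS19 library left out. Named genes were all members, with tests for those called in any comparison, and the 3 largest changes per direction among called genes of the pathway lists and of the companion lists; others are named where their gene bears on a result and were chosen after their values were seen. Intervals (exact Poisson or Clopper-Pearson, 95%) and limits for a count of 0 (3 counts) cover counting error only. The genes most like Ddit3 are not reported here.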

Additional observations from a re-analysis of the deposited data

How the results depend on the processing

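DESeq2 called 0 members in PS19 against WT, TG_PS19 against PS19 and TG_PS19 against WT, and 0, 1 and 0 of the pathway genes. In TG_PS19 against PS19, member calls numbered 7 with class totals and 5 each without the low-count filter, with a robust prior and with doublets kept. In TG_PS19 against WT they numbered 2 with class totals and 0 with Y-linked nuclei. With Y-linked nuclei the pathway lists gave 14 calls in TG_PS19 against PS19, of which 8 were shared with the 22, and 3 against WT with 0 shared; without the low-count filter the latter numbered 1. With doublets kept, Slc7a11 in oligodendrocyte precursors turned to 0.50 in TG_PS19 against PS19.

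Some uncalled changes turned sign. In TG_PS19 against PS19, Hspa5 in dentate granule neurons was 0.025 without the low-count filter, 0.0843 with doublets kept and 0.0779 at resolution 2.0. In PS19 against WT, Atf4 in oligodendrocytes was 0.0020 with relative log expression scaling, 0.00067 with DESeq2, 0.0663 with doublets kept and 0.0246 at resolution 2.0. In TG_PS19 against WT, Y-linked nuclei gave -2.36 for Atf3 in dentate granule neurons (0.49 with all nuclei), 0.76 for Atf3 (-1.38 with all nuclei) and 0.0345 for Atf4 in microglia, and doublets kept gave 0.0876 for Atf3 in microglia. With Y-linked nuclei TG_PS19 held 0 Atf3 UMIs in dentate granule neurons and 1 in microglia. The share of PS19 replicate 2 microglia with Atf3 was 2.48% after thinning. The cause of each change was not tested.

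No paired analysis was possible because WT and TG_PS19 have 1 library each and carry no replicate numbers in the labels. Leaving out a PS19 library left no residual degree of freedom, so those values carry no test. Counts under about 20 UMIs per class and library (Atf3, Trib3, Chac1) limit what is detectable.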
